A study of Mus musculus with 18 samples.

Results

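The 29 genes described here cover the synthesis of cholesterol, its control by the transcription factor SREBP2, and the movement of sterol through and out of the cell. They were listed by name as members of the pathway, with earlier results of these data known, and all 29 were found among the 47937 gene IDs of the deposited count table, of which 29893 had a count in at least 1 library. Abcg1 had no count in any of the 18 libraries, and whether it was silent or lost in the counting is not known; the other 28 genes passed the filter on low counts and were tested.

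The study measured RNA in mouse embryonic fibroblast (MEF) lines that carry an inducible dCas9, a Cas9 that binds DNA without cutting it, aimed at the major satellite repeat of the pericentromeres. The activator line was induced to make dCas9-VPR, a fusion to a transcriptional activator, after 10 ng/ml doxycycline for 6 h. The repressor line was induced to make dCas9-KM, a fusion to a transcriptional repressor, after 100 ng/ml for 24 h, and the control line, called the dCas9 line here, to make dCas9-control, with no effector named, after 10 ng/ml for 24 h. Each of the 3 lines gave 3 induced and 3 uninduced libraries, so there were 6 groups. Uninduced cells received no doxycycline and carried the same construct as the induced cells of their line. All lines were kept in serum-containing medium with tetracycline-free serum and hygromycin. The labels give 1 line for each construct and do not say whether a line is 1 clone, so a construct and the line that carries it cannot be told apart. They number the libraries of a group without naming separate cultures, so the spread that the p-values rest on may be technical only.

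Each library held between 14928765 and 25262912 counts. Summed levels of 10 fibroblast markers lay between 18560 and 23870 CPM (counts of a gene divided by a scaled library size) in every library, and those of 5 epithelial markers did not exceed 0.931 CPM. Of the 10 fibroblast markers, 8 passed the filter on low counts, and Thy1 had no count in 5 of the 6 groups. The sum of 5 endothelial markers was 19.2 to 24.1 CPM in the induced activator libraries, against at most 1.25 CPM elsewhere, and nearly all of it was Pecam1, which averaged 21.3 CPM there, while Kdr, Tek and Cdh5 averaged 0.183, 0.905 and 0.0183 CPM and Emcn had no count. The sum of 4 steroidogenic markers was 11.3 to 13.6 CPM in the induced activator libraries, against at most 2.58 CPM elsewhere, and nearly all of it was Star, which averaged 12.3 CPM, with 2 of the 4 at no count there. The sums of 5 adipocyte, 6 hepatocyte and 6 macrophage markers were 2.71 to 3.79, 2.34 to 2.81 and 9.14 to 9.82 CPM in the induced activator libraries, against at most 0.271, 0.304 and 8.57 CPM elsewhere. Only 1 of the 5 adipocyte, 1 of the 6 hepatocyte and 4 of the 6 macrophage markers passed the filter on low counts. Mitochondrially encoded genes accounted for 0.920% to 0.974% of counts after activator induction, and for 0.582% to 0.676% in the rest. Their part in the results below was not tested, except that scaling to the mitochondrial genes was tried for each result.

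Cholesterol is built from acetyl-CoA through mevalonate and isoprenoid intermediates to squalene, which is closed into a ring and then trimmed in a long series of enzyme steps. The genes of these enzymes are classical targets of SREBP2, a membrane-bound transcription factor encoded by Srebf2. When sterol is scarce, SCAP escorts SREBP2 from the endoplasmic reticulum to the Golgi, where proteases release its active part, and when sterol is plentiful, the INSIG proteins hold SCAP back. Insig1 is itself a target of SREBP2. Sterol excess in the form of oxysterols also activates the nuclear receptors LXR, which drive efflux transporters and the ubiquitin ligase encoded by Mylip. Fibroblasts in culture make cholesterol and also take it up from serum lipoproteins.

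The promoter windows of RefSeq (GRCm38.p6, 250 bases before to 50 bases after a gene's start) were available for 24 of the 29 genes, in 30 windows. They were searched on both strands for letters known from sterol-regulated promoters. The core CACCCCAC of a sterol response element was present in windows of 2 of the 24 genes, Acat2 and Hmgcs1, and for 891 of all 27025 genes with a window. The CCAAT box bound by NF-Y was found for 20 of the 24 genes, and for 11096 of all genes with a window. The GC box GGGCGG was found for 21 of the 24 genes, against 10324 of all genes. The E-box CACGTG was found for 6 of the 24, against 2187 of all genes. The LXR element DR4 was found for none of them and in 0.015% of all 32851 windows. The bases before the start of 4 genes are shown because these genes carry the contrasting changes described below: Hmgcs1 and Insig1 fell on activator induction, and Acat2 and Cyp51 rose. Capitals mark CACCCCAC and the CCAAT box in either orientation, which reads ATTGG on the other strand.
Hmgcs1, chr13:119690101-119690350, plus strand: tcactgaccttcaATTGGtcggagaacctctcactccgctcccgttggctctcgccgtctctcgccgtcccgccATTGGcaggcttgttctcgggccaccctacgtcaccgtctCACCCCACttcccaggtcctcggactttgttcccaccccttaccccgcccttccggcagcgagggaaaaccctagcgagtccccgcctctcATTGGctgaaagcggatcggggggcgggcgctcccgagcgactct
Insig1, chr5:28071162-28071411, plus strand: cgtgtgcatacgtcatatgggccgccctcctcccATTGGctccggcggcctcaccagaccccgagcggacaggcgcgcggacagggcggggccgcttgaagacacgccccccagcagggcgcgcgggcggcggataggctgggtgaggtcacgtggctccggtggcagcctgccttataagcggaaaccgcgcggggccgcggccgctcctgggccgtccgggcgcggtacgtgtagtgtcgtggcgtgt
Acat2, chr17:12960726-12960975, minus strand: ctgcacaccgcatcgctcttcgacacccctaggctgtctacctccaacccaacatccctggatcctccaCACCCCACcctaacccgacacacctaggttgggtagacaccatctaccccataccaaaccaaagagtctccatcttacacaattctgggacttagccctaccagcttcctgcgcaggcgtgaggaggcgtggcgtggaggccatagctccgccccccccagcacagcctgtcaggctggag
Cyp51, chr5:4104698-4104947, minus strand: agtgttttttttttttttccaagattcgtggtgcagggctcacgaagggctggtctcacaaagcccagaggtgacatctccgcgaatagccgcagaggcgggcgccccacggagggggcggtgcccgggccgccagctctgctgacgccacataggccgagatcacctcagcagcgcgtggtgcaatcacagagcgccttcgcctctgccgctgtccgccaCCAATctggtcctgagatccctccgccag
Hmgcs1 and Acat2, which moved in opposite directions, both hold the CACCCCAC core, at 136 and 181 bases before the start. Cyp51 and Insig1 hold a CCAAT box, at 29 and 216 bases before the start, and Acat2 holds none in this window. Starts here are those of RefSeq. In the GENCODE M21 annotation Cyp51, Insig1 and Acat2 start within the bases shown, at 4104746, 28071363 and 12960747. The CCAAT box of Cyp51 lies inside the gene as annotated there. A match or its absence describes the letters of these windows and says nothing about binding.

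Before induction, most of the pathway was already lower in the activator line than in the line with dCas9 alone. A gene is called higher or lower below at an adjusted p under 0.05 by edgeR's quasi-likelihood fit, with the Benjamini-Hochberg method applied over all 16216 genes tested. In the uninduced activator line, 22 of the 28 tested genes were lower than in the uninduced dCas9 line and 1 was higher, where 10.5% of all genes tested were lower and 8.92% higher. The median log2 fold change of the 28 genes was −0.44, and that of all genes tested was 0.00. Levels are CPM after scaling of the libraries by the trimmed mean of M-values (TMM), and SE is the standard error of the log2 fold change. For each of these 22 genes, every uninduced activator library lay below every uninduced dCas9 library, as was so for 17.2% of all genes tested, and for 1 gene every library lay above, as for 16.2% of all genes tested. In RNA of whole cultures, less of a transcript per cell and fewer cells that make it cannot be told apart.

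**Figure D1:**
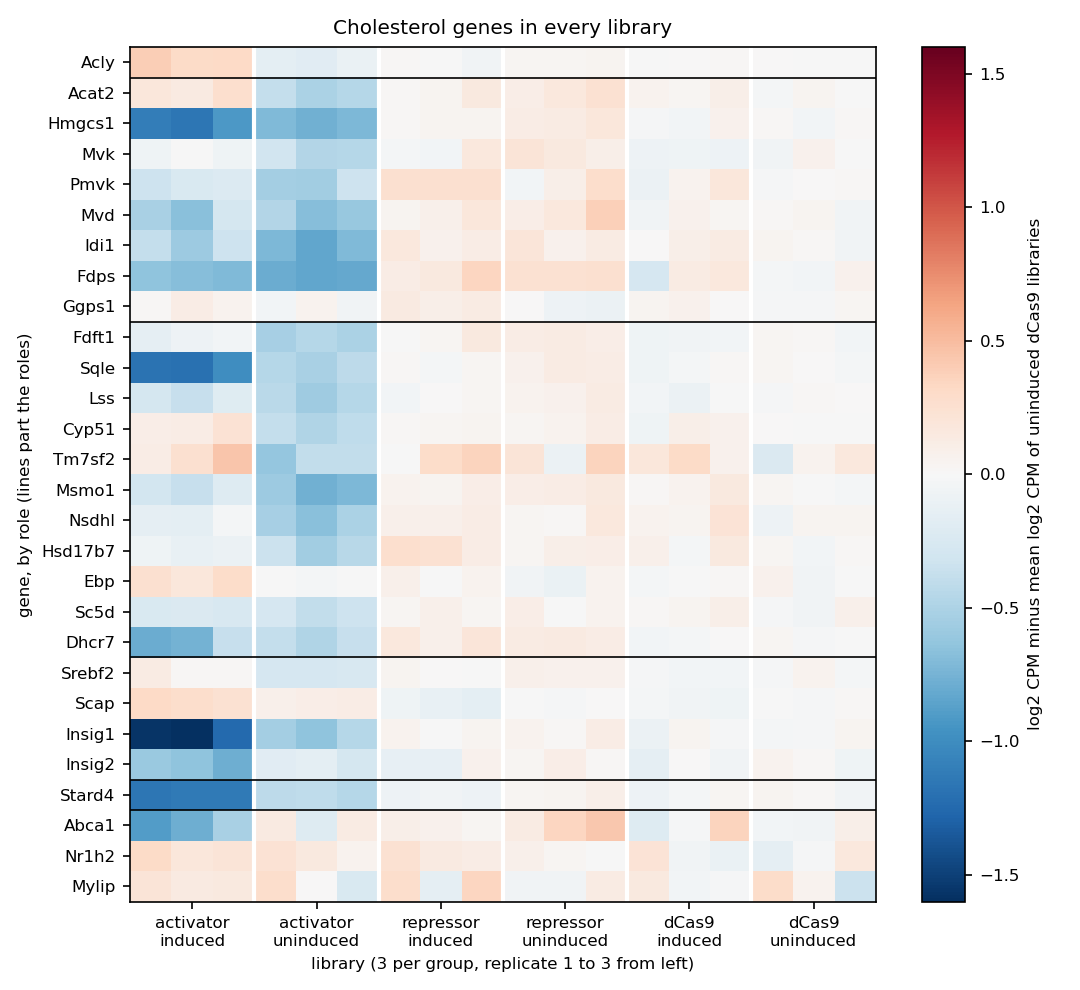
Level of 28 genes (rows, in order of role) in the 18 libraries (columns, 3 per group), as log2 CPM minus the mean log2 CPM of the uninduced dCas9 libraries. Blue is lower and red is higher. The uninduced activator libraries are blue for most enzymes, the repressor and dCas9 libraries are near 0, and the induced activator libraries are deepest blue for Insig1, Stard4, Sqle and Hmgcs1.

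The mevalonate branch held the largest of these differences. Fdps, the synthase of farnesyl diphosphate, had 5.02, 4.88 and 4.92 CPM in the uninduced activator libraries, against 8.51, 8.47 and 9.12 CPM in the uninduced dCas9 libraries (log2 fold change −0.81, SE 0.11, edgeR adjusted p = 6.3e-09). Idi1, the isomerase that makes the starter unit for chain growth, had 21.3, 19.8 and 21.6 CPM in the uninduced activator libraries, against 36.3, 35.6 and 33.7 CPM in the uninduced dCas9 libraries (−0.76, SE 0.06, edgeR adjusted p = 2.11e-19). Neither gene overlapped between the lines. Hmgcs1, the synthase that joins acetyl-CoA and acetoacetyl-CoA into HMG-CoA, had 129, 123 and 127 CPM in the uninduced activator libraries and 213, 204 and 212 CPM in the uninduced dCas9 libraries (−0.73, SE 0.04, edgeR adjusted p = 1.49e-22). Mvd, Pmvk, Acat2 and Mvk, which act along the same branch, were lower by −0.59, −0.49, −0.45 and −0.41 on the log2 scale. Ggps1, whose product leads away from sterols to protein prenylation, did not pass the test (−0.01, SE 0.06).

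From squalene to cholesterol, 10 of 11 enzyme genes were lower in the uninduced activator line. Msmo1, a C4-methyl sterol oxidase, had 79.6, 70.4 and 72.6 CPM in the uninduced activator libraries, against 122, 119 and 117 CPM in the uninduced dCas9 libraries (log2 fold change −0.69, SE 0.04, edgeR adjusted p = 1.88e-22). The sterol dehydrogenase gene Nsdhl, the squalene synthase gene Fdft1 and the lanosterol synthase gene Lss followed, with log2 fold changes of −0.57, −0.50 and −0.49. Sqle, Tm7sf2, Hsd17b7, Cyp51, Dhcr7 and Sc5d lay between −0.47 and −0.32, and Tm7sf2 lost its call without uninduced activator library 1. Ebp, the sterol isomerase gene, was the 1 enzyme of this stretch that did not pass the test, with 28.9, 28.6 and 29.05 CPM in the uninduced activator libraries and 30.5, 27.9 and 29.1 CPM in the uninduced dCas9 libraries. Its values overlapped between the lines, as did those of Ggps1.

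The control genes divided. Srebf2 had 275, 277 and 279 CPM in the uninduced activator libraries, against 327, 344 and 326 CPM in the uninduced dCas9 libraries (log2 fold change −0.27, SE 0.03, edgeR adjusted p = 1.06e-12). Insig1 had 58.7, 54.9 and 62.8 CPM in the uninduced activator libraries, against 83.7, 84.9 and 88.8 CPM in the uninduced dCas9 libraries (−0.55, SE 0.06, edgeR adjusted p = 5.01e-06). Insig2, the other INSIG gene, had 17.4, 17.7 and 16.3 CPM in the uninduced activator libraries, against 20.6, 20.1 and 18.9 CPM in the uninduced dCas9 libraries (−0.21, SE 0.07, edgeR adjusted p = 0.0187), a smaller difference that was lost with DESeq2, without uninduced activator library 3, and without uninduced dCas9 library 1 or 2. Scap was the 1 gene that was higher, with 96.8, 99.2 and 99.8 CPM in the uninduced activator libraries and 91.7, 91.0 and 92.8 CPM in the uninduced dCas9 libraries (0.10, SE 0.03, edgeR adjusted p = 0.0195), and this call was lost in 6 of 26 alternatives, among them leaving out uninduced activator library 2 or 3 or uninduced dCas9 library 1 or 2. Without uninduced dCas9 library 3 or induced dCas9 library 1, 2 genes were higher. Acly, which supplies cytosolic acetyl-CoA, was lower by −0.15 on the log2 scale, the smallest of the 22.

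Stard4, a carrier that moves cholesterol between membranes, had 112, 113 and 109 CPM in the uninduced activator libraries, against 154, 151 and 144 CPM in the uninduced dCas9 libraries (log2 fold change −0.43, SE 0.03, edgeR adjusted p = 1.38e-19). The efflux and LXR genes did not pass the test. Abca1, the cholesterol efflux transporter, had 14.6, 11.5 and 14.5 CPM in the uninduced activator libraries, against 12.9, 12.8 and 14.1 CPM in the uninduced dCas9 libraries. Nr1h2, which encodes LXR beta, had 27.7, 26.4 and 24.7 CPM in the uninduced activator libraries, against 21.4, 23.3 and 26.5 CPM in the uninduced dCas9 libraries, and Mylip had 4.49, 3.68 and 3.10 CPM in the uninduced activator libraries, against 4.51, 3.82 and 2.89 CPM in the uninduced dCas9 libraries. The groups overlapped for all of these genes. Abcg1, another efflux transporter, had 0 of 65147886 counts in the uninduced activator group and 0 of 58688318 in the uninduced dCas9 group, which allows at most 0.046 and 0.0511 CPM of counted reads for a floor of 3 counts over a group, counting error only. A loss of its reads in the counting would not be covered by this limit.

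Set against the uninduced repressor line, the uninduced activator line showed the same counts, 22 lower and 1 higher of 28, where 11.4% of all genes tested were lower and 9.7% higher. Both comparisons use the same uninduced activator libraries. Fdps had 10.3, 10.3 and 10.4 CPM in the uninduced repressor libraries, and its log2 fold change was −1.06 (SE 0.10, edgeR adjusted p = 5.69e-14). The differences of Idi1, Hmgcs1 and Msmo1 from the repressor line were −0.89, −0.88 and −0.81. Between the uninduced repressor line and the uninduced dCas9 line, 2 genes were called higher and 0 lower of 28, where 0.863% of all genes tested were higher and 0.697% lower. For 15 of the 29 genes every uninduced repressor library lay above every uninduced dCas9 library, and for 0 below, where 9.07% and 9.29% of all genes tested did so. A fit of these groups alone called 8 higher. The 2 were Acat2, with 79.6, 83.2 and 88.0 CPM in the uninduced repressor libraries against 72.8, 76.1 and 73.5 CPM in the uninduced dCas9 libraries (0.17, SE 0.04, edgeR adjusted p = 0.0068), and Hmgcs1, with 228, 231 and 238 CPM in the uninduced repressor libraries, against 213, 204 and 212 CPM in the uninduced dCas9 libraries (0.15, SE 0.03, edgeR adjusted p = 0.0111). At an unadjusted edgeR p under 0.05 the number was 14 of 28, against 1928 of all 16216 genes tested. DESeq2 called 1 higher and 0 lower. Both calls were lost without uninduced repressor library 3, that of Acat2 also without uninduced dCas9 library 1 and that of Hmgcs1 without uninduced dCas9 library 2. Without induced activator library 3 or induced dCas9 library 3, 5 and 4 genes were higher. These libraries lie outside this comparison but share its estimate of spread. Shares of all genes called in these alternative fits are not given here.

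**Figure D2:**
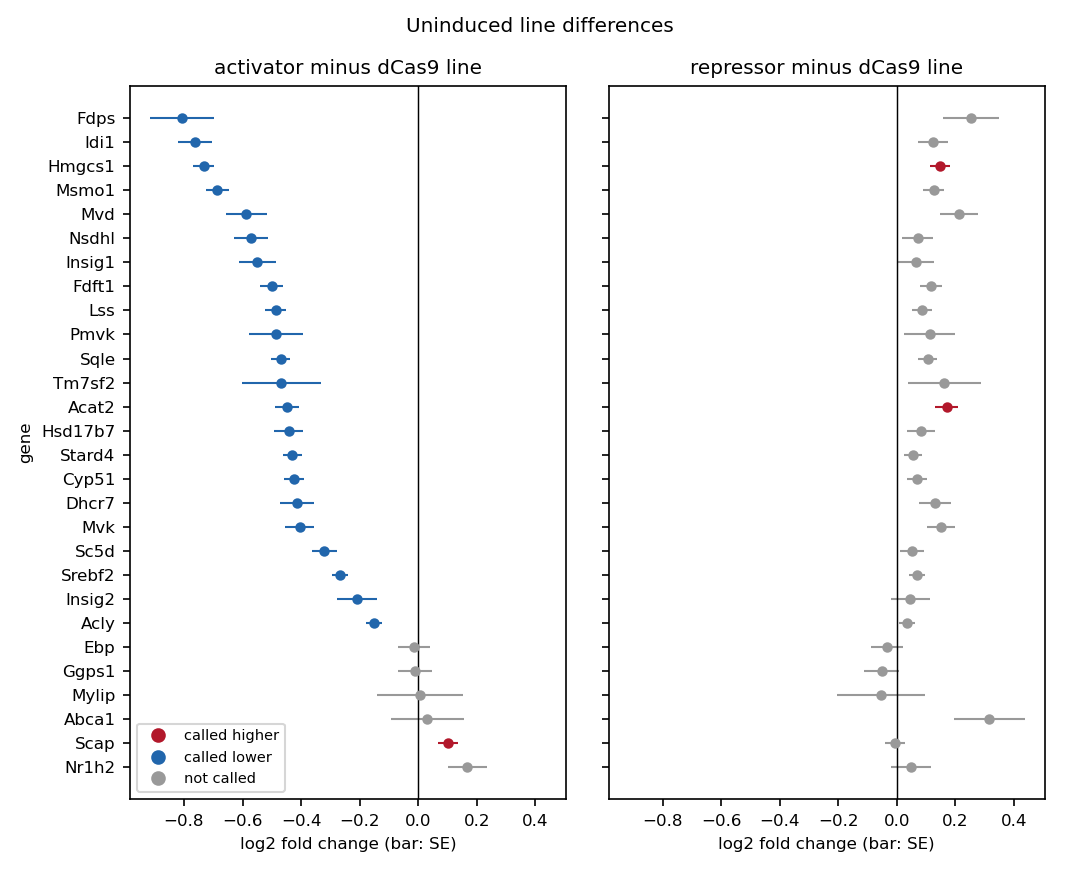
Log2 fold change of each tested gene between uninduced lines, with the SE as a bar. In the left panel, activator over dCas9, the 22 genes called lower lie to the left of 0, and Scap, the only gene called higher, lies to the right. Genes that were not called lie on both sides of 0 there. In the right panel, repressor over dCas9, Acat2 and Hmgcs1 are the genes called higher.

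The 29 genes together took 0.177% to 0.193% of all counts in the induced activator libraries and 0.183% to 0.194% in the uninduced ones, against 0.242% to 0.262% in the repressor and dCas9 libraries. The activator line was therefore lower in this summed share in every library, with or without doxycycline. These are shares of counts without TMM scaling. TMM factors were 0.852 to 0.905 in the induced activator libraries and 1.01 to 1.05 in the others. Induced and uninduced shares of the activator line therefore do not compare as CPM values do.

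After 6 h of dCas9-VPR induction the pathway split. Of the 28 tested genes, 15 rose and 7 fell in the activator line, where 38.2% of all genes tested rose and 37.2% fell, and 6 did not pass the test. The share of the 28 genes that rose was thus above that of all genes, and the share that fell was below it. The median log2 fold change was 0.20 for the 28 genes and 0.00 for all genes tested. The rises depend on how the libraries are scaled: with total counts in place of TMM the median of all genes moved to −0.22, with 10 of the 28 genes higher and 10 lower, and with the mitochondrial genes as the scale it moved to −0.74, with 0 higher and 26 lower. Shares of all genes called under those scalings are not given here, so these counts have no background to be set against. Under those scalings the median of the 28 genes was −0.03 and −0.55. A change of scaling shifts all genes by about the same amount, so it leaves the distance between both medians nearly as it was.

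Several early and late enzymes rose. Acat2, the cytosolic thiolase of the first step, had 83.8, 82.0 and 89.4 CPM in the induced activator libraries, against 56.9, 52.1 and 54.2 CPM in the uninduced ones (log2 fold change 0.65, SE 0.04, edgeR adjusted p = 3.34e-25). Tm7sf2, a sterol reductase of the endoplasmic reticulum, had 5.89, 6.47 and 7.36 CPM induced, against 3.53, 4.14 and 4.13 CPM uninduced (0.76, SE 0.13, edgeR adjusted p = 3.93e-07). The induced and uninduced libraries did not overlap for either gene. Cyp51, the lanosterol demethylase, averaged 198 ± 9.69 CPM induced and 132 ± 4.66 CPM uninduced (SD, n = 3 each), a rise of 0.58. Acly, Nsdhl, Fdft1, Msmo1, Mvk, Hsd17b7 and Idi1 rose by 0.34 to 0.49, and Ebp, Pmvk and Lss by 0.21 to 0.26 on the log2 scale. The rise of Pmvk was lost in 8 of 26 alternatives: without induced activator library 2 or 3, without uninduced activator library 1 or 2, without the filter on low counts, with these groups alone, and with total counts or mitochondrial scaling. The rises of Idi1, Ebp and Lss were also lost with total counts. With mitochondrial scaling none of these rises was called: Tm7sf2 came to 0.01, Acat2 to −0.10 and Cyp51 to −0.16.

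Enzymes of the same route fell in the same libraries. Sqle, the squalene epoxidase, had 91.9, 90.6 and 104 CPM in the induced activator libraries, against 152, 145 and 155 CPM in the uninduced ones (log2 fold change −0.65, SE 0.04, edgeR adjusted p = 6.1e-25). Hmgcs1 had 97.4, 94.2 and 111 CPM induced, against 129, 123 and 127 CPM uninduced (−0.32, SE 0.04, edgeR adjusted p = 3.32e-10). Neither gene overlapped between the groups. Dhcr7, a sterol reductase of the final steps, had 20.5, 21.1 and 27.5 CPM induced, against 27.4, 25.4 and 27.6 CPM uninduced (−0.20, SE 0.06, edgeR adjusted p = 0.00378). Here the groups overlapped through induced library 3, and the call was lost without induced library 1. Fdps, Mvd, Ggps1 and Sc5d did not pass the test, with log2 fold changes from 0.08 to 0.13.

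**Figure D3:**
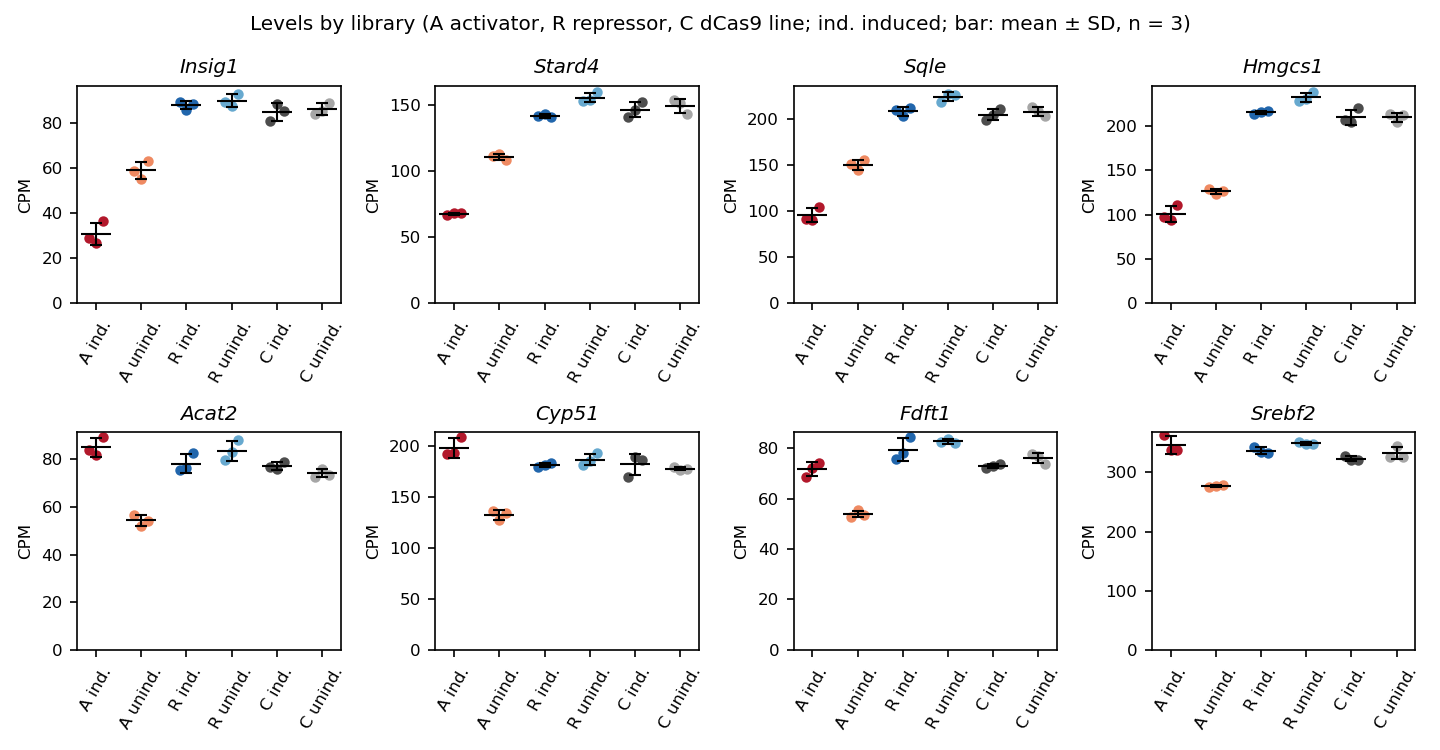
CPM of 8 genes in each library (points) with the mean and SD of each group (bars, n = 3), from the induced activator group at the left of each panel to the uninduced dCas9 group at the right. Insig1, Stard4, Sqle and Hmgcs1 (upper row) are lowest in the induced activator libraries; Acat2, Cyp51, Fdft1 and Srebf2 (lower row) are lowest in the uninduced activator libraries.

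The control genes moved in opposite directions. Insig1 had 28.9, 26.9 and 36.3 CPM in the induced activator libraries, against 58.7, 54.9 and 62.8 CPM in the uninduced ones, the largest change of the 28 genes (log2 fold change −0.92, SE 0.08, edgeR adjusted p = 4.88e-09). Insig2 had 13.2, 12.7 and 11.6 CPM induced, against 17.4, 17.7 and 16.3 CPM uninduced (−0.47, SE 0.08, edgeR adjusted p = 6.85e-08). All induced libraries lay below all uninduced ones for both INSIG genes. Srebf2 had 363, 338 and 338 CPM induced, against 275, 277 and 279 CPM uninduced (0.32, SE 0.03, edgeR adjusted p = 4.4e-18), and Scap had 115, 112 and 108 CPM induced, against 96.8, 99.2 and 99.8 CPM uninduced (0.18, SE 0.03, edgeR adjusted p = 1.38e-06). All induced libraries lay above all uninduced ones for both, but with mitochondrial scaling their log2 fold changes were −0.42 and −0.57, and with total counts that of Scap was −0.045.

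Transport and efflux genes fell or did not pass the test. Stard4 had 67.2, 68.5 and 68.1 CPM in the induced activator libraries, against 112, 113 and 109 CPM in the uninduced ones (log2 fold change −0.71, SE 0.04, edgeR adjusted p = 2.08e-31). Abca1 had 7.15, 7.67 and 9.20 CPM induced, against 14.6, 11.5 and 14.5 CPM uninduced (−0.74, SE 0.14, edgeR adjusted p = 9.45e-05). Both were lower in every induced library. Nr1h2 had 29.3, 26.8 and 27.2 CPM induced, against 27.7, 26.4 and 24.7 CPM uninduced, and Mylip had 4.24, 4.07 and 4.09 CPM induced, against 4.49, 3.68 and 3.10 CPM uninduced. These groups overlapped. Abcg1 had 0 of 60109998 counts in the induced activator group, which allows at most 0.0499 CPM of counted reads, with the same limit. The falls of Insig1, Insig2, Stard4, Abca1, Sqle and Hmgcs1 were called in all 26 alternatives; total counts and mitochondrial scaling shift all genes down and so could not remove a fall.

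**Figure D4:**
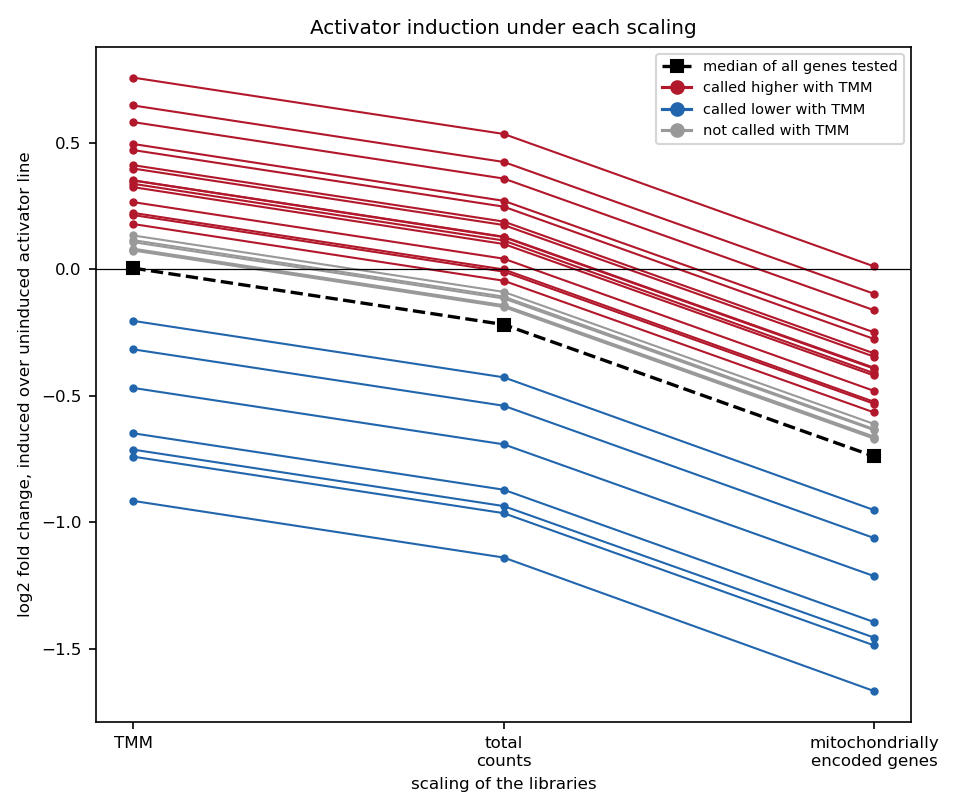
Log2 fold change of each tested gene on activator induction under 3 scalings of the libraries, joined by lines and coloured by the call with TMM; the dashed line is the median of all genes tested. All lines shift down together with the median of all genes, so the order of the genes stays nearly the same while the calls change.

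The levels reached can be set beside those of the uninduced dCas9 line, as ratios of mean CPM and without a test. Insig1 stood at 35.8% of the uninduced dCas9 level in the induced activator line and at 68.5% in the uninduced activator line. The corresponding values were 45.4% and 74.3% for Stard4, 46.0% and 72.4% for Sqle, and 48.2% and 60.2% for Hmgcs1, so for these genes induction moved the level further below that of the dCas9 line. Acat2 stood at 115% induced and 73.4% uninduced, Cyp51 at 111% and 74.5%, and Fdft1 at 94.1% and 70.8%. Of the 22 genes that were lower in the uninduced activator line, 13 rose on induction, 6 fell and 3 did not pass the test. Both comparisons use the uninduced activator libraries, so these counts are not independent of each other. The same crossing was not made for all genes tested, so these counts have no background to be set against.

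Levels per kilobase of all annotated exons together allow only a rough comparison between genes, since the transcripts made may be shorter. On this scale Acly and Srebf2 were the most abundant in the induced activator line, with 75.3 and 48.2 CPM per kilobase. Cyp51 and Acat2 followed there with 44.8 and 33.4 CPM per kilobase. In the uninduced dCas9 line the order was Acly with 59.3, Srebf2 with 46.3, Hmgcs1 with 45.7 and Cyp51 with 40.2 CPM per kilobase. Hmgcs1 and Sqle thus dropped in rank in the induced activator line, with 22.0 and 17.2 CPM per kilobase there, against 45.7 and 37.5 in the uninduced dCas9 line.

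None of the 28 genes was called on induction of dCas9 alone, where 0.253% of all genes tested rose and 0.21% fell. The lack of calls is thus near the shares of all genes. With edgeR 2 of the 28 had an unadjusted p under 0.05, against 1741 of all 16216 genes tested. DESeq2 also called 0. Insig1 had 80.5, 88.4 and 85.0 CPM in the induced dCas9 libraries, against 83.7, 84.9 and 88.8 CPM in the uninduced ones, and Sqle had 199, 204 and 211 CPM induced, against 213, 209 and 203 CPM uninduced. Stard4 had 141, 147 and 153 CPM induced, against 154, 151 and 144 CPM uninduced. The groups overlapped for each of these.

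The change on induction was compared between lines by an interaction term. It was higher in the activator line than in the dCas9 line for 14 genes and lower for 6, where 30.8% of all genes tested were higher and 33% lower. The differences ranged from −0.90 for Insig1 to 0.59 for Acat2 on the log2 scale. Induction lasted 6 h in the activator line and 24 h in the dCas9 line, so the effector and the time cannot be told apart.

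The changes called on repressor induction were small, from −0.13 to 0.18 on the log2 scale. Of the 28, 1 rose and 4 fell, where 5.21% of all genes tested rose and 4.59% fell. The share of the 28 genes that fell was thus above that of all genes, and the share that rose was below it. Stard4 had 142, 143 and 141 CPM in the induced repressor libraries, against 153, 154 and 160.0 CPM in the uninduced ones (log2 fold change −0.13, SE 0.03, edgeR adjusted p = 0.00171). Hmgcs1 had 213, 216 and 216 CPM induced, against 228, 231 and 238 CPM uninduced (−0.11, SE 0.03, edgeR adjusted p = 0.0295), and Sqle had 209.8, 203 and 212 CPM induced, against 218, 227 and 227 CPM uninduced (−0.10, SE 0.03, edgeR adjusted p = 0.0275). The induced libraries of all of these lay below the uninduced ones. Scap had 87.7, 84.4 and 82.5 CPM induced, against 91.3, 90.9 and 92.2 CPM uninduced (−0.11, SE 0.03, edgeR adjusted p = 0.0282). Ggps1 rose, with 26.0, 25.1 and 25.6 CPM induced, against 23.6, 22.1 and 21.9 CPM uninduced (0.18, SE 0.06, edgeR adjusted p = 0.0377). The fall of Stard4 was lost with mitochondrial scaling, and the calls of the other 4 genes were each lost in 7 to 9 of 26 alternatives, DESeq2 included. Without induced repressor library 2, or without uninduced repressor library 2 or 3, 1 gene fell and 0 rose, and without induced repressor library 1, 2 fell and 0 rose.

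The remaining control genes and Abca1 did not pass the test in the repressor line. Srebf2 had 343, 335 and 332 CPM in the induced repressor libraries against 352, 348 and 347 CPM in the uninduced ones, Insig1 had 89.1, 85.6 and 88.0 CPM induced, against 88.9, 87.2 and 92.8 CPM uninduced, and Insig2 had 18.1, 18.1 and 20.8 CPM induced, against 20.2, 21.4 and 20.1 CPM uninduced. Abca1 had 14.2, 13.8 and 13.6 CPM induced, against 14.5, 16.8 and 17.9 CPM uninduced. Against the dCas9 line, the change on repressor induction differed for 0 of the 28 genes, where 1.19% of all genes tested were higher and 1.54% lower. At an unadjusted p under 0.05 the edgeR number was 4, against 2020 of all 16216 genes tested. DESeq2 called 0. The repressor line received 100 ng/ml and the dCas9 line 10 ng/ml doxycycline, so the effector and the dose cannot be told apart.

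Neighbouring pathways were read from 5 further lists. Of 19 tested genes of fatty acid synthesis and SREBP1, 12 were lower and 0 higher in the uninduced activator line against the uninduced dCas9 line, where 10.5% and 8.92% of all genes tested were. They included the phosphatidate phosphatase gene Lpin1 (3.95 ± 0.576 CPM in the uninduced activator line and 7.62 ± 1.32 CPM in the uninduced dCas9 line, log2 fold change −0.96), the acetoacetyl-CoA synthetase gene Aacs (−0.37) and the desaturase gene Scd2 (−0.36). Of 17 genes of SREBP processing and sterol-regulated degradation, 2 were lower and 1 higher in that comparison. Of 22 genes of sterol traffic, storage and oxidation, 4 were lower and 2 higher, and of 17 genes of the isoprenoid branches, 1 was lower and 2 were higher. Of 8 LXR targets outside the 29 genes, 2 were lower and 0 higher.

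On activator induction, where 38.2% of all genes tested rose and 37.2% fell, the fatty acid list held 9 rises and 9 falls of 19, with Mid1ip1, which promotes the polymerisation of acetyl-CoA carboxylase, at 24.1 ± 1.98 CPM induced and 56.7 ± 4.03 CPM uninduced (log2 fold change −1.23), the elongase gene Elovl6 at −0.83 and the acetyl-CoA synthetase gene Acss2 at 0.62. The processing and degradation list held 9 rises and 7 falls of 17, the falls of Rnf139 (−1.06) and Rnf145 (−0.78) among them. Rnf139 and Rnf145 encode ubiquitin ligases of the endoplasmic reticulum, and Rnf139 averaged 18.04 ± 0.371 CPM induced and 37.7 ± 1.38 CPM uninduced. The traffic list held 7 rises and 9 falls of 22, from the sterol transfer gene Gramd1c (4.92 ± 0.765 CPM induced and 0.302 ± 0.0712 CPM uninduced, 4.02) to the carrier gene Stard5 (−1.29). The isoprenoid list held 5 rises and 9 falls of 17, with the dolichol kinase gene Dolk at −1.33 and the prenylation genes Chm and Pggt1b each at 0.78. The LXR list held 5 rises and 3 falls of 8, with the transporter gene Abcg4 at 2.16, Nr1h3, which encodes LXR alpha, at 1.46, and Arl4c at −1.83 (16.5 ± 1.14 CPM induced and 59.1 ± 0.962 CPM uninduced, SD, n = 3 each).

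Repressor induction, where 5.21% of all genes tested rose and 4.59% fell, gave 0 rises and 1 fall of 17 in the processing and degradation list, 2 and 4 of 19 in the fatty acid list, 2 and 4 of 22 in the traffic list, 0 and 0 of 17 in the isoprenoid list and 2 and 1 of 8 in the LXR list. The traffic list held the largest of these, with the sterol transfer gene Gramd1b at −0.61 and the lysosomal lipase gene Lipa at −0.33. No gene of the 5 lists was called on induction of dCas9 alone.

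Some of the genes share sequence or exons with other genes; whether reads were counted for more than 1 gene was not tested, and the strand setting of the counting is not given in the sources used here. Acat2 shares 43.8% of its 31-base words with Acat3, which had 133 counts over all libraries and rose by 3.21 on activator induction (edgeR adjusted p = 1.37e-11). Fdft1 overlaps Ctsb on the opposite strand, and 17.6% of its words are also in Ctsb, which rose by 0.46 on activator induction but did not pass the test between the uninduced lines (0.06). Idi1 and Fdps share 27.0% and 27.9% of their words with other gene models, which include Gm13502, with 604 counts, and Gm43738, with 6. Gm13502 moved the same way as Idi1, by 0.62 on activator induction (edgeR adjusted p = 0.0156) and by −0.64 in the uninduced activator line against the uninduced dCas9 line (edgeR adjusted p = 0.0406). Tm7sf2 overlaps Vps51, which rose by 0.33 on activator induction, and Ggps1 and Cyp51 overlap Arid4b and Akap9. Values of these genes are less certain than those of genes with no such overlap, such as Sqle, Insig2, Stard4 and Abca1, for which at most 0.97% of words occur elsewhere.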

How the data were processed

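RNA of 18 libraries in 6 groups of 3 was analysed from the table of whole-number counts per gene that the authors deposited. Per the labels' protocols, total RNA was DNase-treated and made into stranded libraries read from both ends, and per the submitters' processing notes the build was mm10. The sources used here do not give the aligner, the counter, its annotation or its use of strand. Gene IDs were matched without version to GENCODE M21 (47310 of 47937 IDs).

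All libraries were fitted together in edgeR 4.0.16 (R 4.3.3) with 1 coefficient per group: TMM scaling, filterByExpr (16216 genes kept), robust quasi-likelihood tests, 12 residual degrees of freedom, and Benjamini-Hochberg adjustment over all genes tested. The common biological coefficient of variation was 0.0246. CPM values are TMM-scaled. Alternatives were RLE factors, total counts, scaling to the 37 mitochondrially encoded genes, no filter on low counts, the groups of a comparison alone, limma 3.58.1 (voom), DESeq2 1.42.0, a replicate block, and leaving out each library. The procedure was tested on simulated data in which a small part of the genes changed, as many up as down, in the induced repressor group alone. A change of most genes, as was called on activator induction, was not simulated.

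The 29 genes, the lists and the tests were chosen with earlier results of these data known. Values in every library are given for up to 6 called genes with the largest log2 fold change in each induction, up to 4 in each comparison of uninduced lines, and 11 genes of control, transport and efflux; up to 3 called genes are named per further list, and 1 gene that this rule names is not reported here. Promoter sequences are from RefSeq (GRCm38.p6).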

Additional observations from a re-analysis of the deposited data

Results flagged for a closer look

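The change on induction differed between the activator line and the dCas9 line for 20 genes by the interaction term of the edgeR fit, and this difference is what marks them. As the log2 fold change of the activator line minus that of the dCas9 line, it was positive for Acat2 (0.59), Tm7sf2 (0.56), Cyp51 (0.55), Acly (0.49), Fdft1 (0.47), Mvk (0.43), Srebf2 (0.36), Nsdhl (0.36), Msmo1 (0.32), Hsd17b7 (0.28), Ebp (0.27), Idi1 (0.26), Lss (0.26) and Scap (0.23). It was negative for Insig1 (−0.90), Abca1 (−0.83), Stard4 (−0.68), Sqle (−0.62), Insig2 (−0.40) and Hmgcs1 (−0.32). The 6 negative differences were called in all 26 alternatives. Each of the 14 positive ones was lost with mitochondrial scaling, 8 of them also with total counts, and none in the other 24; both of these scalings shift all genes down, which removes rises and not falls. Induction lasted 6 h in the activator line and 24 h in the dCas9 line, so the effector cannot be told apart from the time.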

How the results depend on the processing

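Of the genes lower in the uninduced activator line, 20 of 22 kept the call against the dCas9 line and 22 of 22 against the repressor line in all 26 alternatives, and 6 of 7 falls on activator induction did, though scalings that shift all genes down could not remove a fall. With mitochondrial scaling activator induction gave 0 higher and 26 lower, the difference from the dCas9 response 0 and 26, and the genes higher on repressor induction, in the uninduced activator line against either line and in the uninduced repressor line came to 0, as did those lower on repressor induction. Sign changed on the log2 scale under mitochondrial scaling for Nr1h2 −0.67, Ggps1 −0.67, Sc5d −0.66, Mylip −0.64, Mvd −0.63, Fdps −0.61, Scap −0.57, Lss −0.53, Pmvk −0.52, Ebp −0.48, Srebf2 −0.42, Idi1 −0.41, Hsd17b7 −0.39, Mvk −0.39, Msmo1 −0.34, Fdft1 −0.33, Nsdhl −0.28, Acly −0.25, Cyp51 −0.16 and Acat2 −0.10 on activator induction, and for Sc5d −0.68, Ggps1 −0.67, Nr1h2 −0.65, Fdps −0.60, Mvd −0.60, Mylip −0.56, Pmvk −0.54, Scap −0.48, Lss −0.44, Idi1 −0.44, Ebp −0.43, Hsd17b7 −0.42, Msmo1 −0.38, Nsdhl −0.34, Srebf2 −0.34, Mvk −0.27, Fdft1 −0.23, Acly −0.22, Cyp51 −0.16, Tm7sf2 −0.14 and Acat2 −0.11 in the difference from the dCas9 response. With total counts it changed for Nr1h2 −0.15, Ggps1 −0.15, Sc5d −0.14, Scap −0.045, Lss −0.0096 and Pmvk −0.0008 on activator induction, and for Sc5d −0.22, Ggps1 −0.21 and Scap −0.018 in the difference, which then held 6 genes higher. Total counts also gave 2 higher and 1 lower on repressor induction and 1 higher in the uninduced repressor line.

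On repressor induction 0 genes were higher without the filter, 2 with its own groups alone and 0 with DESeq2, which called 1 lower. In the uninduced activator line against dCas9, 2 were higher without the filter, 2 with those groups alone and 0 with DESeq2. In the uninduced repressor line, 5 were higher without the filter, 8 with those groups alone and 1 with DESeq2. The cause of these shifts was not tested. Shares of all genes called under each alternative of this section are not given here, so these counts describe the stability of calls only. Leaving out 1 library gave 0 to 1 higher and 1 to 5 lower on repressor induction, 0 to 2 higher in the uninduced activator line against dCas9, 0 to 1 against the repressor line, and 0 to 5 in the uninduced repressor line against dCas9. With the replicate block, 5 genes were higher in the uninduced repressor line and no other count moved by over 1.5 times. Same-numbered libraries of a line correlated between −0.023 and 0.0245 in their deviations, so no shared replicate effect was seen. Whether same-numbered libraries were handled together cannot be told from this, and the labels state no pairing. Genes near 5 CPM, such as Fdps, Tm7sf2 and Mylip, have wide errors at this depth.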
